A study of Mus musculus with 12 samples.

Results

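The genes described here are 10 genes of the Wnt signalling pathway, Wnt5a, Wnt7b, Ror2, Adgra2, Rnf43, Znrf3, Apcdd1, Axin2, Tcf7 and Lef1, of 54146 genes counted in 12 RNA-seq libraries of mouse liver progenitor cells. They were chosen by name from earlier results of these libraries, so their own levels and differences are given as descriptions, without p-values. Of the 10 genes, 7 passed the filter on low counts and were fitted together with all 14283 genes tested, while Axin2, Ror2 and Lef1 did not pass it. Another 127 genes of the pathway, listed by their role, stand beside them, and 72 of these were tested.

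BMEL cells are a bipotential progenitor line from mouse embryonic liver, with hepatocytes and cholangiocytes as its possible fates. The 4 groups of 3 libraries were Cdk8 -/- cells transformed by H-RasG12V (Cdk8 knockout below), Cdk19 -/- cells transformed by H-RasG12V (Cdk19 knockout), wild-type cells transformed by H-RasG12V (RasG12V) and wild-type cells without transformation (untransformed). Per the labels, the line was derived from a CDK8F/F mouse, so cells of every group descend from a floxed Cdk8 background. All groups grew exponentially on collagen in medium with serum, insulin, IGFII and EGF. The labels do not give the promoter that drives H-RasG12V, or say whether a knockout was a clone or a pool. They do not say either that replicates came from separate cultures, so p-values measure the spread between these libraries, which may be technical.

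Wnt proteins are secreted lipid-modified ligands that bind Frizzled receptors on the cell surface. With the co-receptors Lrp5 and Lrp6 they stabilise beta-catenin, which activates target genes together with TCF and LEF factors on DNA, while other ligands such as Wnt5a act largely without beta-catenin through Ror receptors and the planar polarity proteins. In the liver the pathway is known for the growth of progenitor cells and for the gene programme of hepatocytes near the central vein. The kinases CDK8 and CDK19 are alternative subunits of the Mediator complex, and CDK8 is known in human colon cancer cells as a coactivator of beta-catenin target genes.

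The libraries held 24823560 to 36879661 gene counts, so 3 counts, used as the floor of detection, equalled 0.0813 to 0.123 CPM (gene counts scaled to library size) after TMM scaling. On the first 2 principal components (60.2% and 12% of the variance) replicate 3 of RasG12V and replicate 3 of the untransformed cells stood apart from the other libraries of their groups, and results that rest on them are also given without both. Hras counts were 9.07-fold higher in RasG12V than in untransformed cells (edgeR adjusted p = 4.0e-07). Cdk8 had 41.3, 43.8 and 43.2 CPM in Cdk8 knockout cells, against 56.2, 56.3 and 50.9 CPM in RasG12V, a log2 fold change of -0.35 (SE 0.08, edgeR adjusted p = 0.415, 0.0066 without both replicates 3). Cdk19 had 51.2, 45.0 and 53.0 CPM in Cdk19 knockout cells, against 64.6, 67.1 and 93.6 CPM in RasG12V, a log2 fold change of -0.60 (SE 0.13, edgeR adjusted p = 0.243, 0.0136 without both replicates 3). Counts over a whole gene do not check the deleted part. The markers named next were picked from their lists after their values were seen. The 8 bile duct and progenitor markers summed to 2368 to 4743 CPM in RasG12V, against 2620 to 3047 CPM in untransformed cells, and did not move alike. The highest RasG12V sum and the lowest untransformed sum were those of replicate 3. Without both replicates 3 the RasG12V sums lay below the untransformed ones. Krt19 lay between 1674 and 2868 CPM in all 12 libraries and Epcam stayed below 0.211 CPM. Spp1 averaged 742 ± 612 CPM in RasG12V and 128 ± 86.7 CPM in untransformed cells, while Krt7 averaged 231 ± 44.6 CPM in RasG12V and 506 ± 36.5 CPM in untransformed cells (SD, n = 3 each). By library, Spp1 had 386, 391 and 1449 CPM in RasG12V and 80.1, 75.3 and 228 CPM in untransformed cells. Of the 6 mesothelial markers, Msln alone was high, between 1090 and 1651 CPM. Wt1 and Gpm6a had 17 and 3 counts in all libraries together, and Upk1b, Upk3b and Lrrn4 reached at most 18.1, 6.59 and 1.09 CPM. Hnf4a (hepatocyte lineage) lay between 279 and 502 CPM. Of the markers of stellate cells, endothelial cells and macrophages, 7 of 8, 8 of 8 and 7 of 8 were under 1 CPM in every library. The 8 hepatocyte markers summed to 713 to 857 CPM in RasG12V, against 1463 to 1601 CPM in untransformed cells. Serpina1a and Tat had 0 counts in RasG12V and only 3 and 1 counts in the untransformed libraries together, and Cyp3a11 had 6 and 1 counts. Apob averaged 436 CPM in RasG12V and 1052 CPM in untransformed cells, Ttr 0.242 and 32.4 CPM, Apoa1 0.948 and 13.1 CPM, and Alb 0.020 and 3.05 CPM. The 8 stellate cell and fibroblast markers summed to 1.87 to 2.33 CPM in RasG12V, against 0.532 to 1.13 CPM in untransformed cells, with Col1a2 and Lrat at 0 in both groups. Most of that sum was Pdgfra, the only marker of the list that passed the filter, at 1.54 ± 0.297 CPM in RasG12V and 0.500 ± 0.183 CPM in untransformed cells, while Col1a1 averaged 0.170 ± 0.082 CPM in RasG12V and 0.250 ± 0.093 CPM in untransformed cells (SD, n = 3 each). The part of these markers in the differences below was not tested.

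The ligand genes of the pathway were largely silent in these cells, and the few that were counted differed mainly between transformed and untransformed cells. Of 19 Wnt genes 5 passed the filter, and the others reached at most 0.271 CPM in any library. Wnt5a, Wnt7a and Wnt9a made up most of the Wnt counts after transformation, whereas Wnt7b and Wnt4 were the ones higher in untransformed cells.

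Wnt5a (ENSMUSG00000021994, GRCm38 chr14:28504750-28527448, plus strand), the main ligand of the branch without beta-catenin, had 31.6, 30.4 and 36.3 CPM in Cdk8 knockout cells and 18.4, 18.4 and 21.3 CPM in Cdk19 knockout cells, beside 27.2, 28.1 and 49.2 CPM in RasG12V and 4.36, 4.61 and 3.43 CPM in untransformed cells. All 9 transformed libraries lay above all untransformed ones, and RasG12V replicate 3 was the highest of all. The mean level was 34.8 ± 12.4 CPM in RasG12V and 4.13 ± 0.62 CPM in untransformed cells (SD, n = 3 each), an 8.43-fold difference (log2 fold change 3.08, SE 0.22). Without replicate 3 of both groups the log2 fold change was 2.61 (SE 0.12). In bulk RNA more cells with the transcript and more RNA per cell cannot be told apart, here and below. In the order of mean levels RasG12V and the Cdk8 knockout overlapped through RasG12V replicate 3, without which every Cdk8 knockout library lay above RasG12V. With 1 library left out, the log2 fold change of the Cdk8 knockout over RasG12V ran from -0.23 to 0.25. The Cdk19 knockout lay below both groups and above untransformed cells without overlap. The log2 fold change of the Cdk19 knockout over RasG12V was -0.85 (SE 0.20) with all libraries and -0.51 (SE 0.10) without both replicates 3. Over the Cdk19 knockout, the Cdk8 knockout stood 0.76 higher on the log2 scale (SE 0.20).

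Wnt7b (ENSMUSG00000022382, GRCm38 chr15:85535437-85582473, minus strand), a ligand that signals through beta-catenin in epithelia and vessels, ran the other way. Its levels were 3.01, 3.90 and 3.34 CPM in Cdk8 knockout cells and 2.86, 3.07 and 2.51 CPM in Cdk19 knockout cells, beside 2.77, 2.17 and 5.15 CPM in RasG12V and 16.3, 15.9 and 16.3 CPM in untransformed cells. The untransformed libraries were nearly equal and lay far above the 9 transformed ones, which overlapped across their 3 groups. The log2 fold change of RasG12V over untransformed cells was -2.25 (SE 0.25), 4.81-fold lower, and -2.71 (SE 0.17) without both replicates 3. Against RasG12V the differences were 0.01 in Cdk8 knockout cells (approximate 95% interval -0.48 to 0.51) and -0.27 in Cdk19 knockout cells (-0.78 to 0.23), on the log2 scale. Without both replicates 3 they were 0.48 and 0.19, so RasG12V replicate 3 sets the sign in Cdk19 knockout cells.

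**Figure D1:**
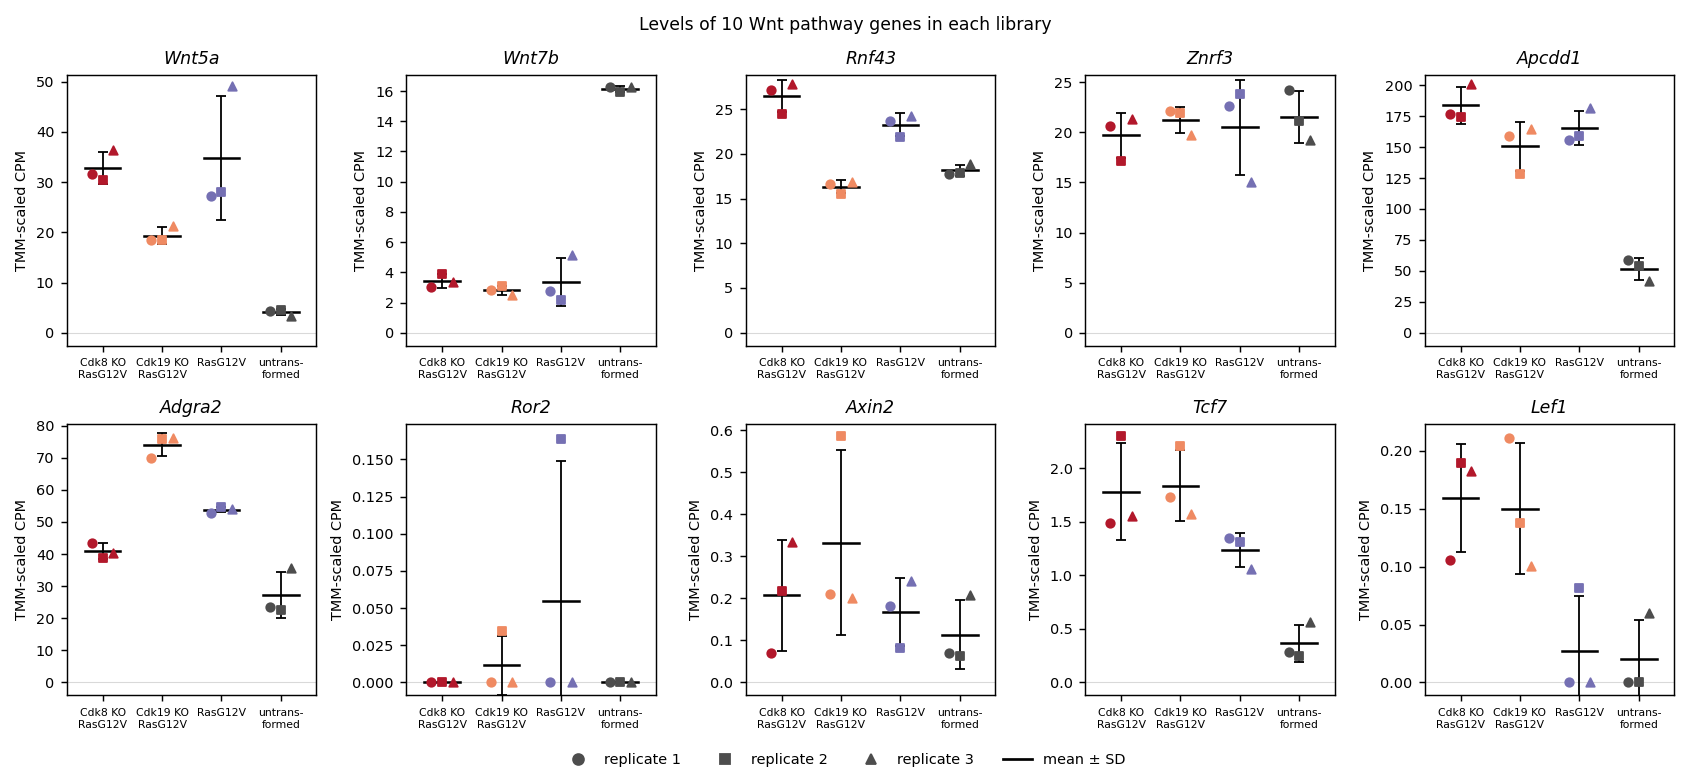
Levels of the 10 genes in each library (y axis, TMM-scaled CPM, a linear axis of its own per gene), with the 4 groups on the x axis, replicates as different symbols, and bars for mean ± SD over 3 libraries, cut off just below 0. Wnt5a and Apcdd1 are higher and Wnt7b is lower in all 9 transformed libraries than in the untransformed ones, Rnf43 and Adgra2 separate the knockouts in opposite directions, and Ror2, Axin2 and Lef1 stay below 0.6 CPM.

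Among the other ligands, Wnt4 was nearly lost and Rspo2 appeared with transformation. Wnt4, a ligand known from kidney and reproductive tract development, fell to 0.058 ± 0.016 CPM in RasG12V, against 3.83 ± 1.08 CPM in untransformed cells (SD, n = 3 each), a log2 fold change of -5.93 (SE 0.39, edgeR adjusted p = 8.2e-07). Rspo2, a secreted R-spondin that strengthens Wnt signals by removing Rnf43 and Znrf3 from the membrane, was counted 229 times in RasG12V and 1 time in untransformed cells, a ratio of 253 with a 95% counting interval of 45.0 to 10042 (edgeR adjusted p = 4.1e-07). Its levels were 2.58, 2.58 and 3.04 CPM in Cdk8 knockout cells, 1.80, 1.83 and 1.71 CPM in Cdk19 knockout cells and 3.21, 2.82 and 2.17 CPM in RasG12V, beside 0, 0.031 and 0 CPM in untransformed cells. The Cdk19 knockout libraries were the lowest of the transformed ones without overlap, at a log2 fold change of -0.62 over RasG12V (SE 0.22, edgeR adjusted p = 0.550, 0.0591 without both replicates 3). No other R-spondin passed the filter.

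Wnt7a and Wnt9a depended on the libraries that stood apart. Wnt7a had 8.16, 6.91 and 2.47 CPM in RasG12V, against 2.34, 3.31 and 7.06 CPM in untransformed cells, so the replicates 3 lay on the side of the other group. Its log2 fold change was 0.45 (SE 0.42, edgeR adjusted p = 0.501) with all libraries and 1.39 (SE 0.21, adjusted p = 2.5e-05) without both. Wnt9a had 9.87, 10.2 and 6.87 CPM in RasG12V, against 4.93, 4.51 and 9.09 CPM in untransformed cells, with a log2 fold change of 0.53 (SE 0.24, edgeR adjusted p = 0.135) and 1.07 (SE 0.14, adjusted p = 3.3e-06) without both. Per kilobase of exon, the mean levels of the ligands in RasG12V were 4.45 CPM per kb for Wnt5a, 2.69 for Wnt9a, 1.84 for Wnt7a, 0.686 for Wnt7b, 0.534 for Rspo2 and 0.0138 for Wnt4. In untransformed cells they were 0.528 CPM per kb for Wnt5a, 1.86 for Wnt9a, 1.34 for Wnt7a, 3.30 for Wnt7b, 0.00202 for Rspo2 and 0.914 for Wnt4, so that Wnt7b had the highest mean there and Wnt5a in RasG12V. Wls, the membrane protein that carries Wnt ligands to the cell surface, fell in RasG12V, to 122 ± 32.1 CPM against 197 ± 26.7 CPM in untransformed cells (log2 fold change -0.69, SE 0.15, edgeR adjusted p = 0.0052).

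The receptors were broadly present, with 8 of 10 Frizzled genes passing the filter, and single receptor genes moved strongly with transformation. Ror2, a Wnt5a receptor, was all but absent, with 0 counts in all libraries except 4 counts in RasG12V replicate 2 and 1 count in Cdk19 knockout replicate 2. Its relative Ror1 was counted in every library, at 3.75, 4.01 and 4.56 CPM in Cdk8 knockout cells, 3.91, 3.73 and 4.05 CPM in Cdk19 knockout cells and 3.64, 4.50 and 2.98 CPM in RasG12V, beside 9.97, 9.12 and 9.12 CPM in untransformed cells. Ror1 fell by 1.35 on the log2 scale in RasG12V (SE 0.16, edgeR adjusted p = 6.5e-05), while Wnt5a itself was higher there. Ryk, a further Wnt5a receptor named after its values were seen, kept to 115 to 144 CPM in all 12 libraries.

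Adgra2 (ENSMUSG00000031486, GRCm38 chr8:27085583-27123436, plus strand), also called Gpr124, is a co-receptor that with Reck directs Wnt7a and Wnt7b signals to Frizzled receptors in brain vessels. Its levels were 43.5, 38.6 and 40.5 CPM in Cdk8 knockout cells and 70.1, 75.9 and 76.3 CPM in Cdk19 knockout cells, beside 52.9, 54.6 and 54.0 CPM in RasG12V and 23.4, 22.7 and 35.6 CPM in untransformed cells. No 2 groups overlapped, and the order ran from the Cdk19 knockout through RasG12V and the Cdk8 knockout to untransformed cells. The log2 fold change of RasG12V over untransformed cells was 0.98 (SE 0.14), and 1.21 (SE 0.08) without both replicates 3. Against RasG12V it was -0.40 (SE 0.14) in Cdk8 knockout cells and 0.46 (SE 0.14) in Cdk19 knockout cells, and the Cdk8 knockout over the Cdk19 knockout stood at -0.86 (SE 0.14). The 3 values of the knockouts moved by less than 0.01 without both replicates 3. Reck, named as its partner after its values were seen, lay between 0.568 and 1.90 CPM in the 12 libraries.

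Of the 16 other receptor and co-receptor genes tested, 3 rose and 4 fell in RasG12V against untransformed cells, beside 11.9% of all genes tested that rose and 11.5% that fell. Without both replicates 3, 5 rose and 5 fell, beside 19% and 21% of all genes. The added calls were rises of Fzd3 (log2 fold change 0.69, edgeR adjusted p = 0.0307) and Lrp5 (0.28, 0.0043) and a fall of Fzd5 (-0.22, 0.0364). Lgr6, a receptor for R-spondins, rose to 52.0 ± 7.26 CPM in RasG12V, against 4.73 ± 1.97 CPM in untransformed cells (log2 fold change 3.45, SE 0.23, edgeR adjusted p = 8.2e-07). Lgr4, the R-spondin receptor of most epithelia, named after its values were seen, had 49.8, 52.1 and 97.7 CPM in RasG12V, against 175, 153 and 84.1 CPM in untransformed cells. The groups overlapped through the replicates 3, and its log2 fold change was -1.05 (SE 0.27, edgeR adjusted p = 0.0154) with all libraries and -1.70 (SE 0.10, adjusted p = 1.7e-10) without both. Per kilobase of exon, mean Lgr6 and Lgr4 levels were 7.59 and 11.3 CPM per kb in RasG12V and 0.690 and 23.4 CPM per kb in untransformed cells. Tspan12, a tetraspanin that helps Fzd4 signal, rose by 1.95 on the log2 scale (SE 0.32, edgeR adjusted p = 0.00083), with 42.3, 39.6 and 112 CPM in RasG12V against 16.3, 16.1 and 17.6 CPM in untransformed cells, and by 1.32 without both replicates 3. Fzd4 rose by 0.52 (SE 0.11, edgeR adjusted p = 0.0047).

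**Figure D2:**
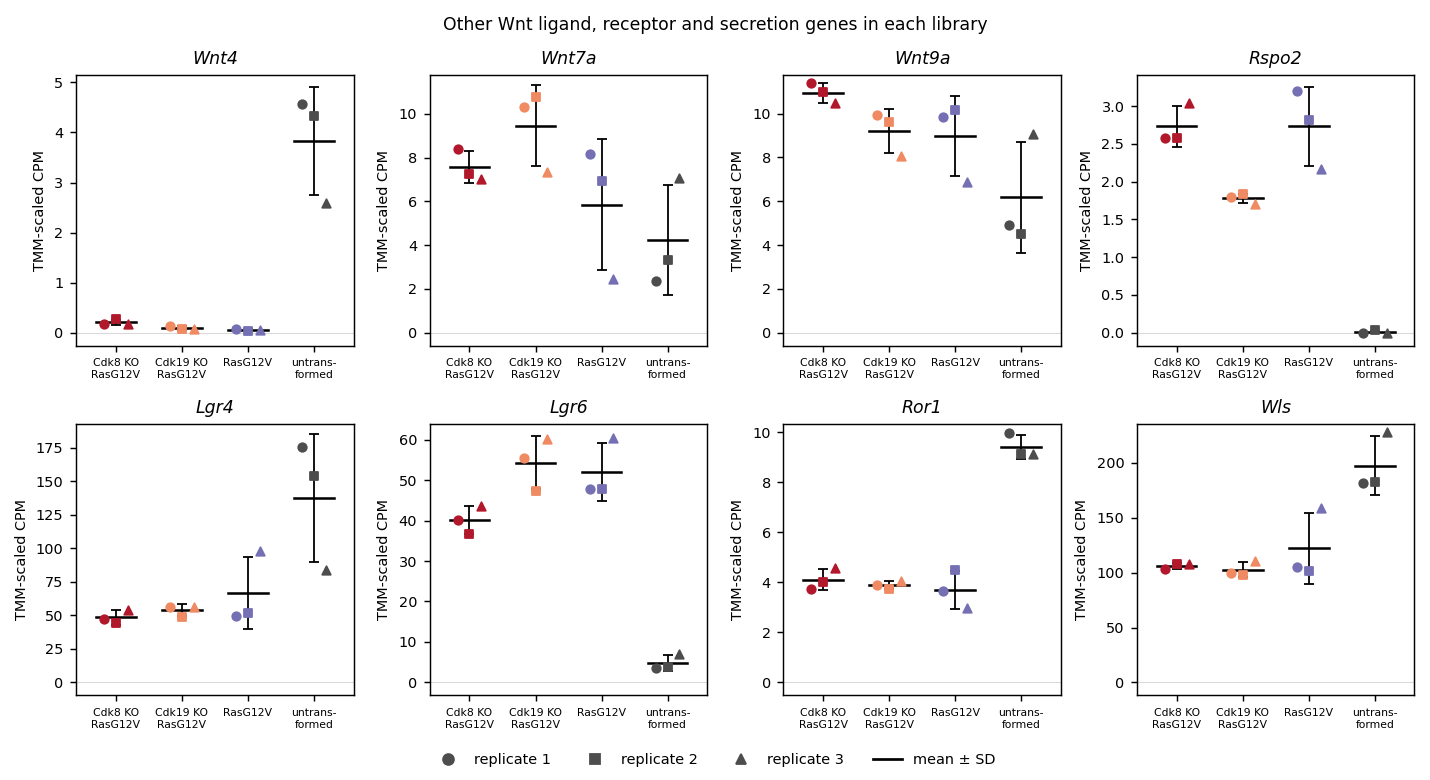
Levels in each library (y axis, TMM-scaled CPM, a linear axis of its own per gene) of 8 further ligand, secretion and receptor genes, with groups on the x axis, replicates as symbols and bars for mean ± SD over 3 libraries, cut off just below 0. Rspo2 and Lgr6 are high and Wnt4, Ror1 and Wls low in the 9 transformed libraries, while replicate 3 of RasG12V and of untransformed cells lie toward each other in Lgr4 and change places in Wnt7a.

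Among the inhibitors at the cell surface, Rnf43 separated the knockouts. Rnf43 (ENSMUSG00000034177, GRCm38 chr11:87662722-87735539, plus strand) is a ubiquitin ligase that removes Frizzled receptors from the membrane and is itself a known beta-catenin target in the intestine. Its levels were 27.1, 24.5 and 27.8 CPM in Cdk8 knockout cells and 16.7, 15.5 and 16.8 CPM in Cdk19 knockout cells, beside 23.7, 21.8 and 24.3 CPM in RasG12V and 17.8, 17.8 and 18.9 CPM in untransformed cells. No 2 groups overlapped, and the Cdk19 knockout lay below untransformed cells, at the bottom of the order. The log2 fold change of RasG12V over untransformed cells was 0.36 (SE 0.09), and those over RasG12V were 0.18 (SE 0.09) in Cdk8 knockout cells and -0.51 (SE 0.09) in Cdk19 knockout cells. Between the knockouts it was 0.70 (SE 0.09), 1.62-fold higher in Cdk8 knockout cells, and 0.69 (SE 0.08) without both replicates 3.

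Znrf3 (ENSMUSG00000041961, GRCm38 chr11:5276324-5444847, minus strand), the paralogue of Rnf43 with the same role, showed no such order. It had 20.6, 17.2 and 21.3 CPM in Cdk8 knockout cells and 22.1, 21.9 and 19.7 CPM in Cdk19 knockout cells, beside 22.6, 23.8 and 15.0 CPM in RasG12V and 24.3, 21.1 and 19.2 CPM in untransformed cells. All 4 groups overlapped. The difference between the knockouts was -0.11 on the log2 scale (approximate 95% interval -0.42 to 0.21), and that of RasG12V over untransformed cells was -0.07 (-0.39 to 0.24). Per kilobase of exon, Rnf43 and Znrf3 stood at 4.03 and 2.50 CPM per kb in Cdk8 knockout cells, 2.49 and 2.69 in Cdk19 knockout cells, 3.55 and 2.6 in RasG12V and 2.77 and 2.73 in untransformed cells.

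Promoter sequences are shown for Rnf43, which differed between the knockouts, for Axin2, the target gene most used as a readout of beta-catenin, and for the Wnt5a receptors Ror1 and Ror2, of which only Ror1 was clearly counted. They come from RefSeq on GRCm38.p6 and run 5′ to 3′ on the gene's strand, from 250 bases before to 50 bases from the start site on. Capitals mark matches to CTTTGA (TCF and LEF factors), TGANTCA (AP-1) or CCGGAAG (ETS factors), searched on both strands. The windows are chr11:87662837-87663136 (plus strand) for Rnf43, chr11:108920099-108920398 (plus strand) for Axin2, chr4:100095541-100095840 (plus strand) for Ror1 and chr13:53286075-53286374 (minus strand) for Ror2. The table lists 2 start sites for Rnf43, and the one shown lies 365 bases from the start of the GENCODE gene.
Rnf43: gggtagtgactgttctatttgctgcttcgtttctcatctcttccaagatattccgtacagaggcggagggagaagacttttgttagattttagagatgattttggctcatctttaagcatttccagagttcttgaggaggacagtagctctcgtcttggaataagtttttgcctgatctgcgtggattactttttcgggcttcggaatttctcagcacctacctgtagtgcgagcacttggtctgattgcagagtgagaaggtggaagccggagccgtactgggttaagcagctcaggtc
Axin2: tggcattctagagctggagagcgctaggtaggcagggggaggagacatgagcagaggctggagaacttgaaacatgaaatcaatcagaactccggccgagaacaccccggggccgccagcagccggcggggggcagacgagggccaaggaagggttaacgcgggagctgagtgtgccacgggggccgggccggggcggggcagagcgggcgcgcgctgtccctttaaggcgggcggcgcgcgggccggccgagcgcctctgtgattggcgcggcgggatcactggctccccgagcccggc
Ror1: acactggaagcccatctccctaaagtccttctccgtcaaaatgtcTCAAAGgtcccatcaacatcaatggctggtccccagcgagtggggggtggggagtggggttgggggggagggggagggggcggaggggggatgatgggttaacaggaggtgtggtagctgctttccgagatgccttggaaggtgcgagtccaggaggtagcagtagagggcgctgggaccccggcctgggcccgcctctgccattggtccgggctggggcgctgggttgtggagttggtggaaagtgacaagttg
Ror2: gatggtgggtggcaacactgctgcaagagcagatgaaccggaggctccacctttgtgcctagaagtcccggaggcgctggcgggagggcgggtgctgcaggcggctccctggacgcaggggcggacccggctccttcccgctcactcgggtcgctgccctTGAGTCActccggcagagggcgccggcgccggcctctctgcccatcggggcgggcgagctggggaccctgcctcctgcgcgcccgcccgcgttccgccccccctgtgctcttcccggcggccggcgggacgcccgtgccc

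The windows of Rnf43 and Axin2 held none of the 3 motifs. That of Ror1 held TCF/LEF letters on the opposite strand at positions -205 to -200 from the start site, and that of Ror2 held AP-1 letters at -90 to -84. Of 5 members with a promoter in the table, 0 held the TCF/LEF letters, 1 the AP-1 letters and 0 the ETS letters. Of all 32851 promoters of that length, 16% held the TCF/LEF letters, 7.81% the AP-1 letters and 8.86% the ETS letters. These counts describe letters in short windows, and no match says nothing of a factor's binding.

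Apcdd1 (ENSMUSG00000071847) encodes a membrane glycoprotein that binds Wnt ligands and Lrp5 and inhibits the pathway. It was the most counted of the 10 genes, at 176, 174 and 201 CPM in Cdk8 knockout cells and 159, 128 and 164 CPM in Cdk19 knockout cells, beside 156, 159 and 181 CPM in RasG12V and 58.8, 54.2 and 41.8 CPM in untransformed cells. All transformed libraries lay above the untransformed ones, and the knockouts overlapped RasG12V but not each other. The level was 3.21-fold higher in RasG12V than in untransformed cells (log2 fold change 1.68, SE 0.13), and the log2 fold change was 1.46 (SE 0.11) without both replicates 3. Against RasG12V the differences on the log2 scale were 0.15 in Cdk8 knockout cells (approximate 95% interval -0.10 to 0.41) and -0.14 in Cdk19 knockout cells (-0.39 to 0.12).

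Of 3 other inhibitor genes tested, 0 rose and 2 fell in RasG12V, beside 11.9% and 11.5% of all genes tested. Without both replicates 3, where 19% of all genes rose and 21% fell, Kremen1, a receptor for Dkk proteins, rose as well (log2 fold change 0.27, edgeR adjusted p = 0.0456). Sfrp4, a secreted Frizzled-related protein that binds Wnt ligands, fell to 0.097 ± 0.064 CPM in RasG12V, against 0.811 ± 0.127 CPM in untransformed cells (SD, n = 3 each, log2 fold change -3.05, SE 0.43, edgeR adjusted p = 0.00029). Shisa2, which in frog embryos holds Frizzled receptors inside the cell, fell by 1.34 on the log2 scale (SE 0.34, edgeR adjusted p = 0.0132, and 0.0542 without untransformed replicate 1). In the knockouts Shisa2 had 4.81, 4.61 and 4.53 CPM without Cdk8 and 1.66, 2.21 and 1.27 CPM without Cdk19, beside 2.80, 3.56 and 1.20 CPM in RasG12V and 7.81, 6.95 and 4.14 CPM in untransformed cells. The difference between the knockouts was 1.44 (SE 0.35, edgeR adjusted p = 0.241, 4.2e-05 without both replicates 3).

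In the relay from receptor to nucleus 4 of 18 other genes (22.2%) passed the test with all 12 libraries, beside 23.4% of all genes tested. Without both replicates 3, 7 of them (38.9%) passed, beside 40% of all genes, so the relay stood near the share over all genes. Ctnnb1, which encodes beta-catenin and was named after its values were seen, averaged 1986 ± 154 CPM in Cdk8 knockout cells, 1741 ± 97.4 CPM in Cdk19 knockout cells, 2060 ± 491 CPM in RasG12V and 2176 ± 85.4 CPM in untransformed cells (SD, n = 3 each). Its log2 fold change in RasG12V over untransformed cells was -0.08 (edgeR adjusted p = 0.730), and -0.32 (SE 0.08, adjusted p = 0.0031) without both replicates 3. Of the 18 genes of the destruction complex and the relay, 4 rose and 0 fell in RasG12V with all libraries, and 6 rose and 1, Ctnnb1, fell without both replicates 3. The added rises were those of Apc2 (1.04, adjusted p = 0.00053) and Apc (0.30, 0.0077), by the same edgeR test. With all libraries the largest of the rises was that of Csnk1e, a casein kinase that acts with Dishevelled, with a log2 fold change of 0.56 (SE 0.07, edgeR adjusted p = 0.00012). Csnk1a1 (0.26, adjusted p = 0.0097), Tnks2 (0.31, 0.0162) and Amer1 (0.38, 0.0431) rose less, by the same edgeR test. Amer1 did not pass without any 1 of 9 libraries (adjusted p 0.0550 to 0.176), and Tnks2 not without untransformed replicate 1 or 2 (0.0849 and 0.0778).

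Axin2 (ENSMUSG00000000142, GRCm38 chr11:108920349-108950783, plus strand), a scaffold of the destruction complex that beta-catenin itself induces, was close to the floor everywhere. It had 2, 8 and 11 counts in Cdk8 knockout cells, 6, 17 and 6 counts in Cdk19 knockout cells, 5, 2 and 8 counts in RasG12V and 2, 2 and 7 counts in untransformed cells. The groups overlapped, and the highest library, Cdk19 knockout replicate 2, reached 0.587 CPM. Its constitutive relative Axin1, named after its values were seen, lay between 54.6 and 66.6 CPM in all 12 libraries.

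Among the TCF and LEF factor genes, Tcf7l2 had the highest mean level in every group. Tcf7 (ENSMUSG00000000782, GRCm38 chr11:52252371-52283014, minus strand), the factor best known from T cells, had 1.48, 2.30 and 1.55 CPM in Cdk8 knockout cells and 1.73, 2.21 and 1.57 CPM in Cdk19 knockout cells, beside 1.35, 1.31 and 1.05 CPM in RasG12V and 0.284, 0.247 and 0.566 CPM in untransformed cells. Every transformed library lay above every untransformed one, and both knockouts lay above RasG12V without overlap while overlapping each other. The log2 fold change of RasG12V over untransformed cells was 1.73 (SE 0.33), and 2.30 (SE 0.39) without both replicates 3. Over RasG12V it was 0.54 (approximate 95% interval -0.02 to 1.09) in Cdk8 knockout cells and 0.57 (0.01 to 1.14) in Cdk19 knockout cells, resting on 32 to 37 counts per RasG12V library.

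Lef1 (ENSMUSG00000027985, GRCm38 chr3:131110471-131224356, plus strand), the partner factor induced in many Wnt-driven tumours, had 3, 7 and 6 counts in Cdk8 knockout cells, 6, 4 and 3 counts in Cdk19 knockout cells, 0, 2 and 0 counts in RasG12V and 0, 0 and 2 counts in untransformed cells. Both knockouts lay above RasG12V and untransformed cells without overlap, at levels of at most 0.211 CPM that are near the floor of 3 counts. Tcf7l2, the main factor of this family in gut and liver epithelium, and Tcf7l1, a repressor of the family, were named after their values were seen. Per kilobase of exon, mean levels in RasG12V were 3.42 CPM per kb for Tcf7l2, 0.497 for Tcf7l1, 0.471 for Tcf7 and 0.0031 for Lef1, against 4.35, 0.512, 0.139 and 0.00226 in untransformed cells. Of 13 other nuclear genes tested, 0 rose and 1 fell in RasG12V with all libraries, beside 11.9% of all genes that rose and 11.5% that fell. Without both replicates 3, 0 rose and 5 fell, beside 19% of all genes that rose and 21% that fell there. The gene that fell with all libraries was Tle3, a Groucho corepressor of TCF factors (log2 fold change -0.47, SE 0.11, edgeR adjusted p = 0.0074). In the fit without both replicates 3, Tcf7l2 (-0.59, adjusted p = 0.00032), Tle2 (-1.76, 0.0014), Aes (-0.35, 0.0010) and Bcl9l (-0.30, 0.0053) fell too, by the same edgeR test.

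In the planar polarity branch 2 of 8 other genes rose and 3 fell in RasG12V, beside 11.9% and 11.5% of all genes tested. Celsr1, a cadherin that positions polarity complexes between neighbouring cells, fell to 1.82 ± 0.412 CPM in RasG12V, against 6.57 ± 1.44 CPM in untransformed cells (SD, n = 3 each, log2 fold change -1.84, SE 0.22, edgeR adjusted p = 8.1e-05). Vangl1 fell (-0.28, adjusted p = 0.0198), whereas Vangl2 (0.46, 0.0120) and the formin Daam1 (0.43, 0.0015) rose, by the same edgeR test. The call of Vangl1 was lost when RasG12V replicate 1 or 2 or untransformed replicate 1 was left out (adjusted p = 0.0694, 0.0743 and 0.0801), and Vangl2 not without untransformed replicate 2 (0.0623). The counts were again 2 and 3 without both replicates 3, beside 19% and 21% of all genes. In that fit Celsr2 no longer passed (log2 fold change -0.95, edgeR adjusted p = 0.0927, beside -1.13 and 0.0330 with all libraries) and Fuz fell (-1.04, 0.0079). Vangl1, Vangl2 and Daam1 act downstream of Wnt5a and Ror receptors in polarity signalling.

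The target genes of beta-catenin did not move in a single direction. Sp5, Tnfrsf19 and Ascl2, which are widely used readouts, reached at most 0.182 CPM in any library. Of 8 other target genes tested, 3 rose and 3 fell in RasG12V, beside 11.9% and 11.5% of all genes tested. Without both replicates 3 the counts were also 3 and 3, beside 19% and 21% of all genes. Cd44, a hyaluronan receptor, rose to 852 ± 159 CPM in RasG12V, against 457 ± 88.7 CPM in untransformed cells (log2 fold change 0.90, SE 0.15, edgeR adjusted p = 0.00098). Myc, Ccnd1 and Tbx3, named after their values were seen, averaged 229 ± 24.7, 3007 ± 311 and 9.59 ± 0.662 CPM in RasG12V. In untransformed cells these genes averaged 179 ± 21.2, 2454.5 ± 285 and 7.05 ± 0.638 CPM (SD, n = 3 each). The rises past the threshold other than that of Cd44 were among these genes. Bambi averaged 0.191 CPM in RasG12V and 0.265 CPM in untransformed cells. Glul, the glutamine synthetase of hepatocytes around the central vein, fell to 292 ± 39.9 CPM in RasG12V, against 505 ± 24 CPM in untransformed cells (-0.79, SE 0.09, adjusted p = 6.0e-05). Edn1, the endothelin precursor, fell by 3.22 (SE 0.49, edgeR adjusted p = 0.00052), and the Notch ligand gene Jag1 fell by 0.57 (SE 0.14, adjusted p = 0.0124), on the log2 scale. Jag1 did not pass without untransformed replicate 1 or 2 (edgeR adjusted p = 0.0587 and 0.0502).

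**Figure D3:**
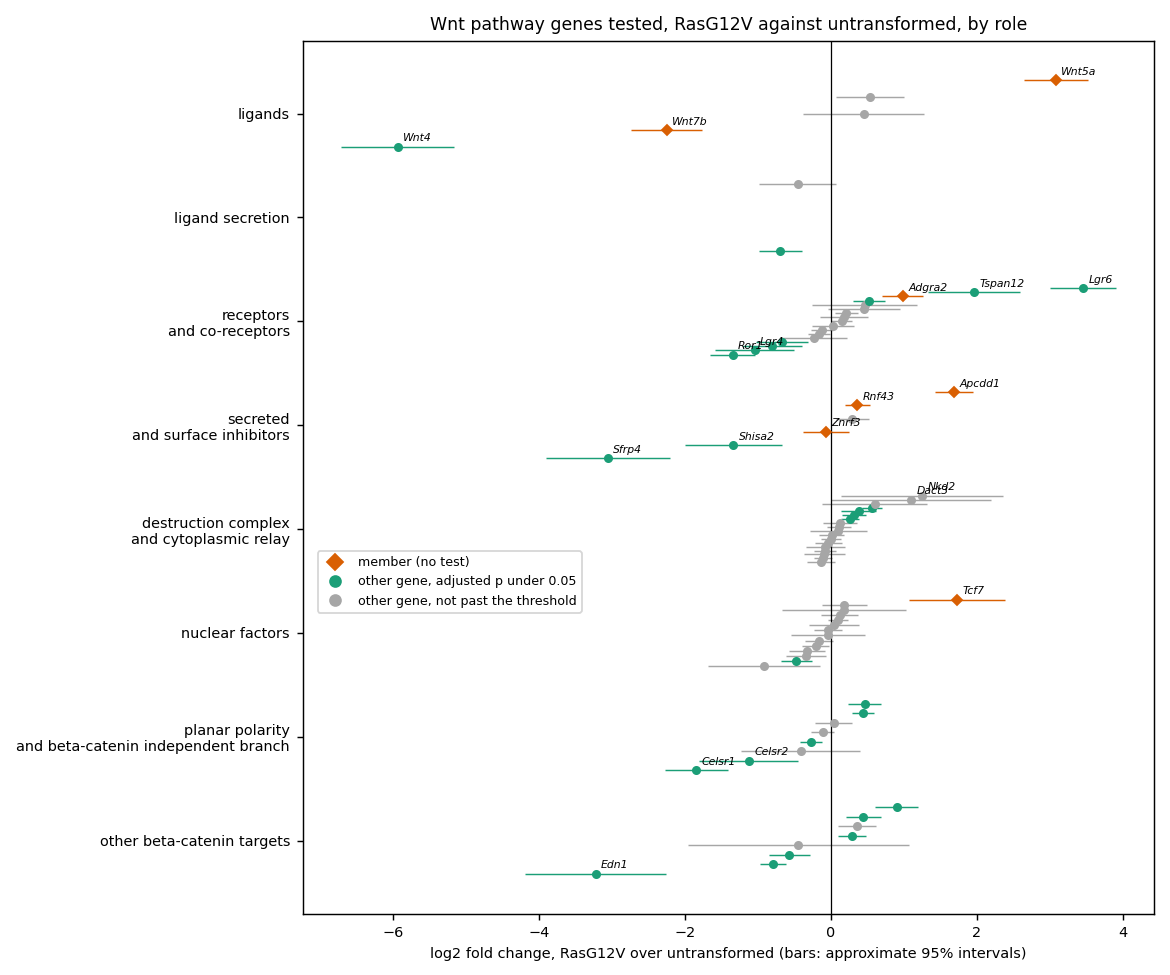
Log2 fold change of RasG12V over untransformed cells (x axis) for the tested genes of the Wnt list, grouped by role (y axis), each point with its approximate 95% interval. Diamonds are the 7 members that passed the filter, given without p-values, and Rspo2 is left out because untransformed cells held 1 count of it. Ligands, receptors and inhibitors spread from Wnt4 at -5.93 to Lgr6 at 3.45, while most genes of the relay and most nuclear factors lie near 0.

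Over the whole list, transformation moved single genes in both directions. Of the 72 other Wnt genes tested, 13 rose and 15 fell in RasG12V against untransformed cells at an edgeR adjusted p under 0.05, which is 38.9% of them, beside 11.9% of all tested genes that rose and 11.5% that fell. Their median log2 fold change was 0.0041, beside -0.00041 over all genes tested. Without both replicates 3, 20 rose and 22 fell, beside 19% and 21% of all genes. Without untransformed replicate 1 alone 9 rose and 9 fell, counts given here without the share over all genes. The libraries of both groups did not overlap in 35 of the 72 genes, beside 32.3% of all genes tested. Of the 7 members tested, 5 were past the same threshold upwards and 1 downwards, with and without both replicates 3, and 6 did not overlap. Nothing is read from the members' counts, since the members were chosen on these libraries.

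Against RasG12V, neither knockout moved a gene of the rest of the list past the threshold with all 12 libraries. In the Cdk8 knockout 0 of the 72 other genes passed in the edgeR test, as in DESeq2 and limma-voom, and 0% of all genes tested passed. At an unadjusted edgeR p under 0.05 were 8 of the 72, beside 871 of all 14283 genes tested. Of the 7 members 0 passed and 3 did not overlap (Adgra2, Rnf43 and Tcf7), beside 12.5% of all genes. Without both replicates 3, Adgra2 alone of the members was past the threshold, downwards, beside 1.59% of all genes, and the count of the other genes was 0 again. In the Cdk19 knockout 0 of the 72 other genes passed in the edgeR test, DESeq2 and limma-voom, beside 0.014% of all genes in the edgeR test. At an unadjusted edgeR p under 0.05 were 8 of the 72, beside 1089 of all 14283 genes tested. Of the members 0 passed with all libraries and 4 did not overlap (Adgra2, Rnf43, Tcf7 and Wnt5a), beside 14.5% of all genes. Without both replicates 3, Adgra2 was past the threshold upwards and Wnt5a and Rnf43 downwards, beside 2.01% of all genes. In that setting Celsr1 rose (log2 fold change 0.99, edgeR adjusted p = 0.0171), and Fzd4 (-0.44, 0.0182), Shisa2 (-0.88, 0.0310), Cd44 (-0.26, 0.0463) and Jag1 (-0.34, 0.0255) fell.

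The knockouts were also set against each other, a comparison that leaves out both libraries that stood apart except through the shared estimate of the spread. With all 12 libraries in the fit, Rnf43 was past the threshold upwards and Adgra2 downwards in the Cdk8 knockout over the Cdk19 knockout, beside 0.105% of all genes tested. Neither was past it without replicate 1 or 3 of the Cdk8 knockout or without any 1 library of the Cdk19 knockout, and 1 of them was without Cdk8 knockout replicate 2, untransformed replicate 1, or RasG12V replicate 1 or 2. The libraries did not overlap in 4 of the 7 members (Adgra2, Apcdd1, Rnf43 and Wnt5a), beside 20.7% of all genes. Of the 72 other genes 0 passed in the edgeR test and in limma-voom, and 2 in DESeq2. At an unadjusted edgeR p under 0.05 were 8 of the 72, beside 1027 of all 14283 genes tested. In the fit without both replicates 3, Wnt5a was also past the threshold, upwards, beside 5.32% of all genes. In this fit 7 of the other genes passed, all named after their values were seen. Shisa2 (log2 fold change 1.44, edgeR adjusted p = 4.2e-05), Fzd4 (0.55, 0.00035), Tspan12 (0.40, 0.0134), Jag1 (0.37, 0.0025) and Aes (0.23, 0.0373) were higher in Cdk8 knockout cells. Lgr6 (-0.44, 0.0037) and the cyclin gene Ccnd1 (-0.26, 0.0070) were lower in it. The comparisons of the knockouts with RasG12V share the RasG12V libraries.

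**Figure D4:**
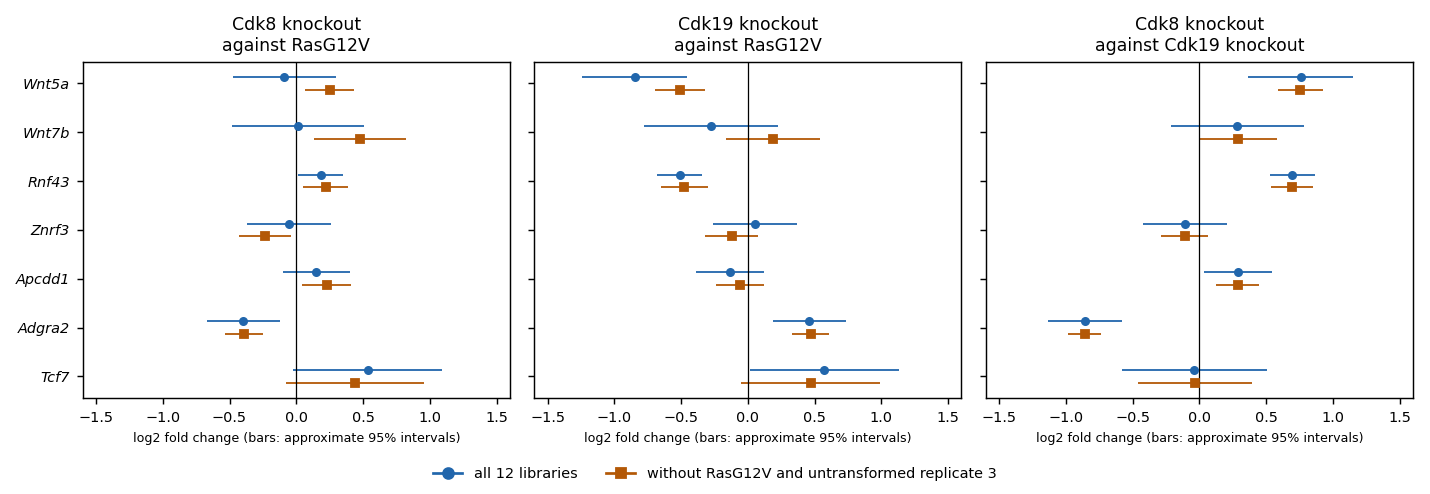
Log2 fold changes (x axis) of the 7 members tested (y axis) in the Cdk8 knockout over RasG12V, the Cdk19 knockout over RasG12V and the Cdk8 knockout over the Cdk19 knockout, with all 12 libraries (circles) and without replicate 3 of RasG12V and of untransformed cells (squares), and bars for approximate 95% intervals. Rnf43 lies at 0.70 and Adgra2 at -0.86 between the knockouts, and the values of Wnt5a and Wnt7b over RasG12V shift most without the 2 libraries.

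The genes most like Wnt5a and Rnf43 in their pattern came from outside the Wnt list. Likeness was the root mean square difference of centred log2 CPM over the 12 libraries, among 11962 protein-coding genes. For Wnt5a the closest included Cpne9 (0.226), Fam78b, Calcrl and Sema7a (0.292), where the median over all genes was 1.26. Cpne9, a copine, averaged 1.92 CPM in Cdk8 knockout cells, 1.10 CPM in Cdk19 knockout cells, 1.58 CPM in RasG12V and 0.169 CPM in untransformed cells. For Rnf43 they were Cfap69 (0.120), Tsc22d2, Cish, Tes and Rnf19b (0.161), where the median was 0.351. Cfap69, a gene of cilia and sperm tails, averaged 94.3 CPM in Cdk8 knockout cells, 60.3 CPM in Cdk19 knockout cells, 82.6 CPM in RasG12V and 64.7 CPM in untransformed cells. The 12 libraries share their groups, so this likeness describes the same 4 levels many times over.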

How the data were processed

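The authors deposited a table of gene counts for each library, made with STAR 2.6.0a on GRCm38.p6 after FastQC, per the submitters' processing notes. Which annotation release was counted is not given in the sources used here. The reverse-strand counts were used, since that column held 24.7 to 28.9 times the forward-strand counts. Reads without a gene stayed out of library sizes: 2.10% to 3.34% unmapped, 23.0% to 26.3% mapped to several places, 4.31% to 5.85% outside genes and 0.963% to 1.04% ambiguous, with 65.2% to 67.0% counted. Of 54146 gene identifiers, 54079 matched GENCODE M21.

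Counts were fitted under R 4.3.3 by edgeR 4.0.16 (TMM, filterByExpr by group, robust glmQLFit, glmQLFTest) on all 12 libraries without a block, and p-values were adjusted by Benjamini-Hochberg over the 14283 genes tested, with 0.05 as threshold. The script was tested on simulated counts. Standard errors (SE) are approximate: the size of the log2 fold change over the root of its quasi-likelihood F, and approximate 95% intervals are the normal ones from that SE. Counting error alone is covered by floors and counting intervals.

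The members and the lists of genes were chosen with earlier results of these data known, as were the 2 libraries left out together. Genes named are the members, Cdk8, Cdk19, Hras, each ligand that passed the filter, up to 4 other genes per role and comparison by smallest adjusted p past the threshold, and the 5 genes most like each of Wnt5a and Rnf43, of which 1 is not reported here. Apcdd1l, of 138 symbols listed, was not matched. Alternatives were other scalings (RLE, upper quartile), other filters, unstranded counts, DESeq2 1.42.0, limma-voom (limma 3.58.1), a fit of the 2 groups compared, the replicate number as a block, and leaving out libraries.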

Additional observations from a re-analysis of the deposited data

How the results depend on the processing

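With transformation the members past the threshold numbered 6, and 5 without a filter on low counts or with only the 2 groups fitted, under the alternatives run. The number of other Wnt genes, 28, was 15 when only the 2 groups compared were fitted, 42 without both replicates 3, and 18 to 36 with 1 library left out (18 without untransformed replicate 1, 36 without RasG12V replicate 3). In the Cdk8 knockout against RasG12V, members past the threshold numbered 0 and became 1 without both replicates 3, with 0 to 0 over single libraries left out for members and for other genes. In the Cdk19 knockout against RasG12V the members, 0 as reported, were 3 without a filter on low counts, 2 in DESeq2, 3 without both replicates 3, and 0 to 2 with 1 library left out (2 without untransformed replicate 3). The other genes there were 5 without both replicates 3 and 0 with any 1 library left out. Between the knockouts the 2 members became 1 with upper quartile scaling and 0 to 3 with 1 library left out, with 0 without Cdk8 knockout replicate 1 or 3 or any Cdk19 knockout library. They were 1 without Cdk8 knockout replicate 2, untransformed replicate 1, or RasG12V replicate 1 or 2. The other genes, 0 as reported, were 2 without a filter, 2 in DESeq2, 6 with only the 2 groups fitted, 7 without both replicates 3, and 0 to 2 with 1 library left out (2 without RasG12V replicate 3). Calls over all genes moved between fits too, with transformation from 23.4% with all libraries to 40% without both replicates 3. The counts above are given without that share, so they are not read as moves of the Wnt genes alone. The cause of these moves was not tested. No called value reversed. With only the 2 groups fitted, Amer1, Csnk1a1, Fzd4, Jag1, Shisa2, Tnks2, Vangl1 and Wls did not pass with transformation, and Csnk1a1 and Vangl1 did not without a filter. The replicate number as a block gave 33 other Wnt genes with transformation and moved no member count. Deviations of same-numbered libraries correlated between -0.168 and 0.282 over 18 pairs, with 8 pairs above 0.1. Those of differently numbered libraries correlated between -0.295 and 0.222 over 36 pairs, with 6 pairs above 0.1. Whether the numbers pair the libraries was not tested further. Ror2, Axin2 and Lef1 were too low for a test at this depth.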
